A study of Mus musculus with 20 samples.

Results

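The Myc locus was examined here as a stretch of chromatin: all peaks of 19 deposited lists in the 700 kb window chr15:61400000-62100000 (mouse build mm9). The window held 224 of the 284878 peaks of the series, and these merged into 48 of 77867 regions when peaks sharing at least 1 bp were joined. The window was chosen by its position around Myc, and its reference point, a wide region at 61814610 to 61819976, was selected on measured values. It ranked 3 by width among 22073 regions open at 4 hours and not on day 0 (5340 bp over the open-chromatin lists alone; the next wider had 5360 bp and the next narrower 4540 bp). Its width and its gain are therefore given as descriptions.

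The cells were 3T3-L1, a mouse preadipocyte line that becomes adipocyte-like after hormonal induction. Cells taken past confluence were the day 0 group. All later groups had received fetal bovine serum, insulin, dexamethasone (a glucocorticoid) and 3-isobutyl-1-methylxanthine (a phosphodiesterase inhibitor), and from day 2 on the medium held serum and insulin, then serum alone. DNase I hypersensitive sites (DHS), which mark open chromatin, were listed for day 0, 2 hours, 4 hours, day 1, day 2 and day 6. Chromatin immunoprecipitation lists covered C/EBPbeta (day 0, 2 hours, 4 hours, day 2), C/EBPdelta (day 0, 4 hours) and PPARgamma (day 2, day 6). RXR, Stat5a and GR, the glucocorticoid receptor, were listed at 4 hours, and RNA Pol II, the polymerase of messenger RNA genes, on day 0 and at 4 hours. Each group was 1 library of 1 cell line, so no difference between groups was tested, and gained or absent refers to entries in the lists, not to a measured change in signal.

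Myc encodes a basic helix-loop-helix leucine zipper protein that pairs with Max and drives genes of growth and cell division. It is an early response gene of serum and growth factors, and forced Myc expression is known to block adipocyte differentiation of preadipocytes. Enhancers of Myc can lie far from the gene, on either side. C/EBPbeta and C/EBPdelta are leucine zipper factors that act at the start of adipogenesis, GR is the receptor of dexamethasone, Stat5a is a signal-activated factor of hormone and cytokine receptors, RXR is the partner of several nuclear receptors, and PPARgamma is the main regulator of the adipocyte state.

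In the GRCm38.p6 gene table the neighbours of Myc are the pseudogene Gm18788 on the side of lower coordinates and the long non-coding RNA gene Pvt1 on the side of higher coordinates. No mm9 annotation or sequence was used here. No peak is therefore assigned to a promoter, exon or intron of Myc or Pvt1, and regions are named by position and by their distance from the edge of the wide region. Each position below is on chromosome 15.

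Open chromatin was sparse in the window before induction and denser afterwards. The day 0 DHS list had 1 peak in it, as many as the median of 3745 tiles of 700 kb laid over the genome (1 peak). DHS peaks numbered 9 at 2 hours, 23 at 4 hours, 26 on day 1, 17 on day 2 and 7 on day 6, against tile medians of 1, 6, 7, 5 and 2. At least as many peaks as in the window were found in 61.1% of tiles for day 0, 5.53% for 2 hours, 7.90% for 4 hours, 6.97% for day 1, 11.2% for day 2 and 16.6% for day 6.

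Factor lists placed the window among the denser tiles. C/EBPbeta had 11 peaks on day 0, 16 at 2 hours, 29 at 4 hours and 25 on day 2, and 18.6%, 6.46%, 2.64% and 1.26% of tiles held as many or more. GR had 7 peaks (2.59% of tiles), Stat5a 6 (9.99%) and RXR 3 (5.98%). PPARgamma had 6 peaks on day 2 (2.19% of tiles) and 8 on day 6 (3.23%). C/EBPdelta had 2 peaks on day 0 (16.7% of tiles) and 18 at 4 hours (4.19%), in lists of 2581 and 18327 peaks. RNA Pol II had 3 peaks on day 0 and 7 at 4 hours, with 51.9% and 16.0% of tiles holding as many, so in these lists the window was near the middle on day 0. The window was picked with these data known, so such ranks describe it and are no test.

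**Figure D1:**
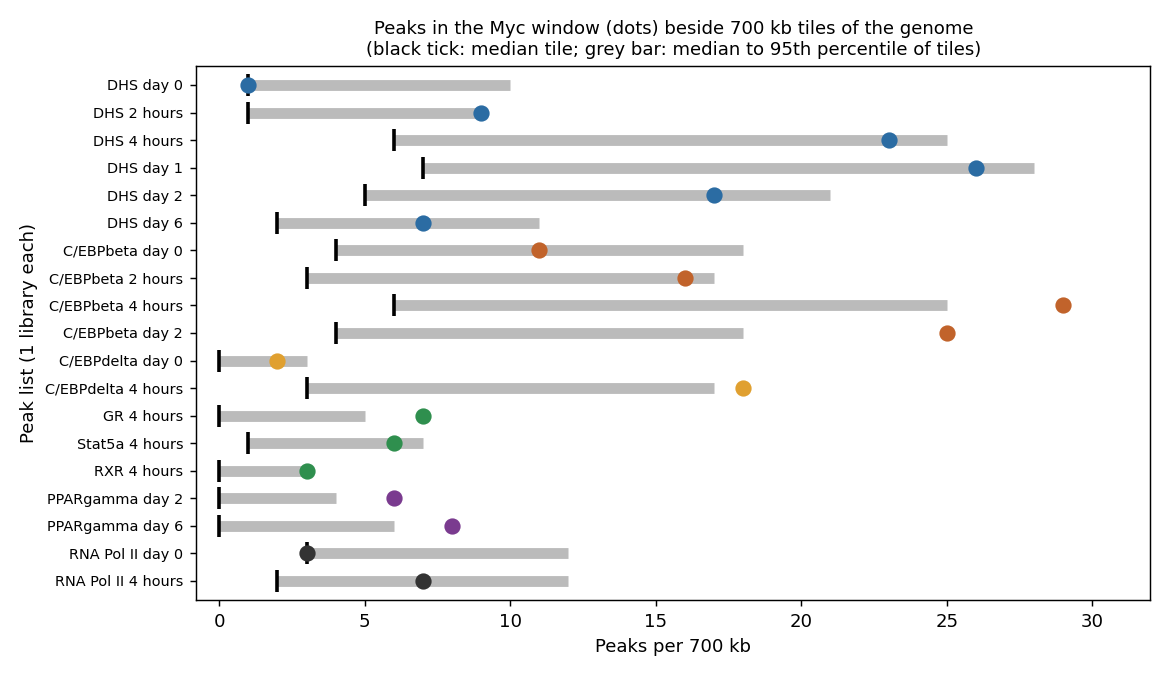
Peaks in the Myc window in each of the 19 lists (dots; x axis, peaks per 700 kb; y axis, list) beside the median (black tick) and the range from the median to the 95th percentile (grey bar) of 3745 tiles of the same length. The dots of day 0 DHS (1 peak) and day 0 RNA Pol II (3 peaks) sit on the median, while C/EBPbeta at 4 hours (29) and on day 2 (25) lies beyond the grey bar, as do C/EBPdelta of 4 hours (18), GR (7) and PPARgamma of both days (6 and 8).

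Peaks of different lists often fell in the same merged regions. Of the 48 regions, 14 were in 1 list only, 16 in 2 to 4 lists, 13 in 5 to 9 and 5 in 10 or more. Those in 1 list made up 29.2%, against 37.3% over the genome. Those in 10 or more lists made up 10.4%, against 5.84% of all regions of the genome. The 5 regions in most lists were that at 61439287 to 61440670 (15 of 19 lists), the wide region (14), and those at 62047999 to 62049112 (12), 62010986 to 62012157 (11) and 61968490 to 61969720 (11). The wide region is long, and the peaks of its 14 lists did not all overlap within it. The widest stretch with no peak in any list was 52486 bp long, and the median gap between neighbouring regions was 9044 bp. The 415 kb below the wide region held 22 regions (5.31 per 100 kb) and the 280 kb above it held 25 (8.93 per 100 kb).

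**Figure D2:**
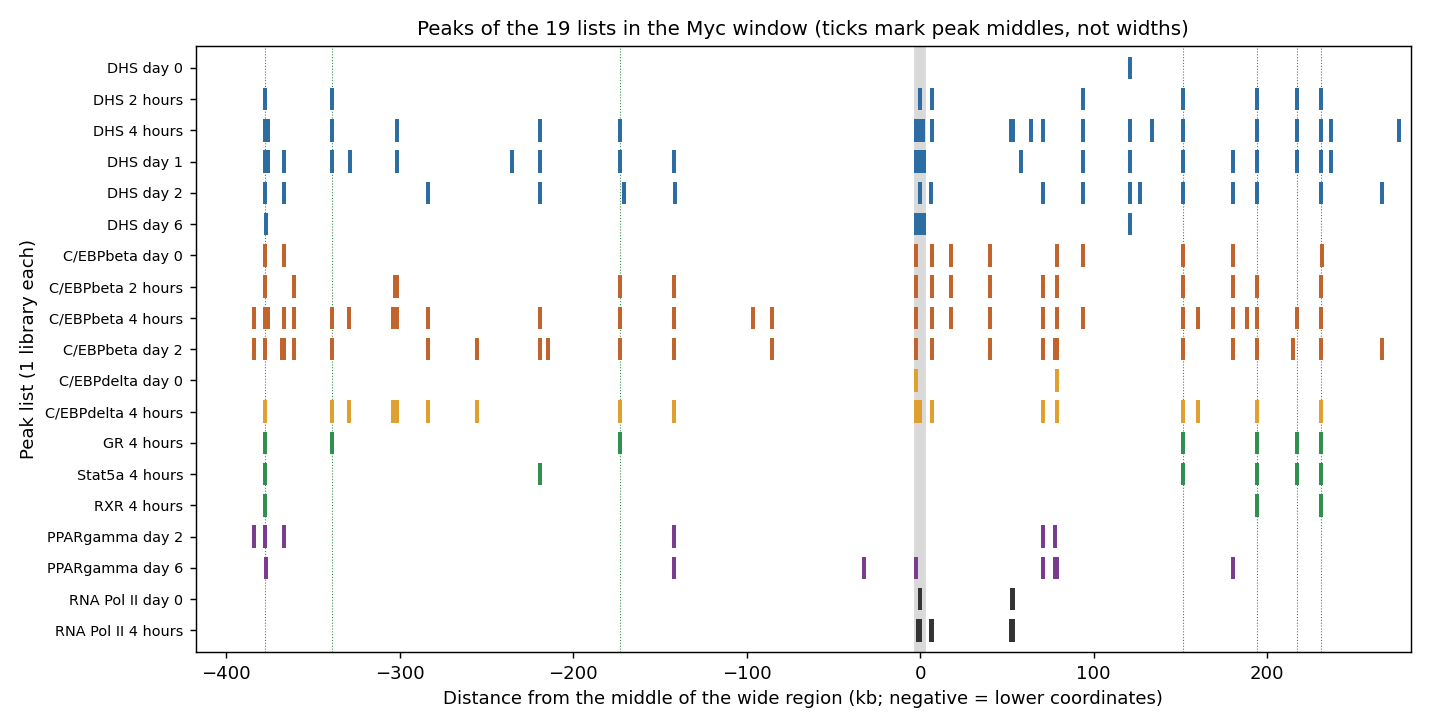
Every peak of the 19 lists in the window, drawn as a tick at its middle (x axis, kb from the middle of the wide region, which is shaded grey; y axis, list). Dotted green lines mark the 7 regions with 3 or more of 5 factors at 4 hours, and all RNA Pol II peaks lie in the wide region or on its right.

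The wide region changed from no DHS peak on day 0 to nearly full DHS coverage on day 2. No day 0 DHS peak lay in its 5367 bp. At 2 hours 1 DHS peak of 575 bp stood at 61816863 to 61817437, covering 10.7% of the region. At 4 hours 3 peaks of 718, 1913 and 1968 bp covered 85.7% of it. On day 1, 7 peaks of 199 to 1110 bp covered 72.9%, and on day 2 a single peak of 5218 bp covered 97.2%, the third-widest peak of the whole day 2 DHS list. On day 6, 5 peaks of 150 to 528 bp covered 37.1%. The DHS signal was thus listed in every sample after induction, in pieces whose number and width differed. Whole lists held 9989 DHS peaks on day 0 and 11936 on day 6. With the longer DHS lists shortened by width to the length of the 2 hours list, the region held 0, 1, 2, 2, 1 and 4 peaks in time order. The 2 hours list itself was left whole, so its 1 peak could not change. With only the wider peaks of each list it held 0, 0, 3, 3, 1 and 1, so that the 2 hours peak was lost.

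Most DHS regions listed at every later time were also listed on day 0. Of 4623 DHS regions of the genome listed at all 5 later times, 88.6% were also in the day 0 list. Of the 2367 of them that also held RNA Pol II of both times, as the wide region does, 96.4% were in the day 0 list and 86 were not. The wide region was picked for its gain, so its place among these 86 follows from the choice.

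RNA Pol II was listed in the wide region at both times, in different extent. On day 0 there was 1 peak of 568 bp at 61816856 to 61817423. At 4 hours there were peaks of 578 bp at 61815625 to 61816202 and of 2473 bp at 61816310 to 61818782, and coverage went from 10.6% to 56.8% of the region. The day 0 RNA Pol II peak and the 2 hours DHS peak share almost the same bounds. RNA Pol II was thus listed there on day 0 with no DHS peak of that day. The same held for the other RNA Pol II peaks of day 0 in the window. How often this occurs over the genome was not computed, and the whole day 0 lists held 14784 RNA Pol II peaks and 9989 DHS peaks.

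C/EBPbeta was listed at the lower end of the wide region at every time. C/EBPbeta had 1 peak there on day 0 (61814799 to 61815442, 644 bp), 1 at 2 hours (568 bp), 1 at 4 hours (542 bp) and 1 on day 2 (412 bp). C/EBPdelta had a peak over the same place on day 0 (700 bp) and at 4 hours (693 bp). At 4 hours C/EBPdelta had another peak of 537 bp at 61816871 to 61817407, inside the bounds of the day 0 RNA Pol II peak, where no C/EBPbeta peak was listed at any time. GR, Stat5a and RXR had no peak in the wide region. PPARgamma was not listed there on day 2 and had 1 peak on day 6, of 690 bp from 61814610, over the C/EBP site.

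**Figure D3:**
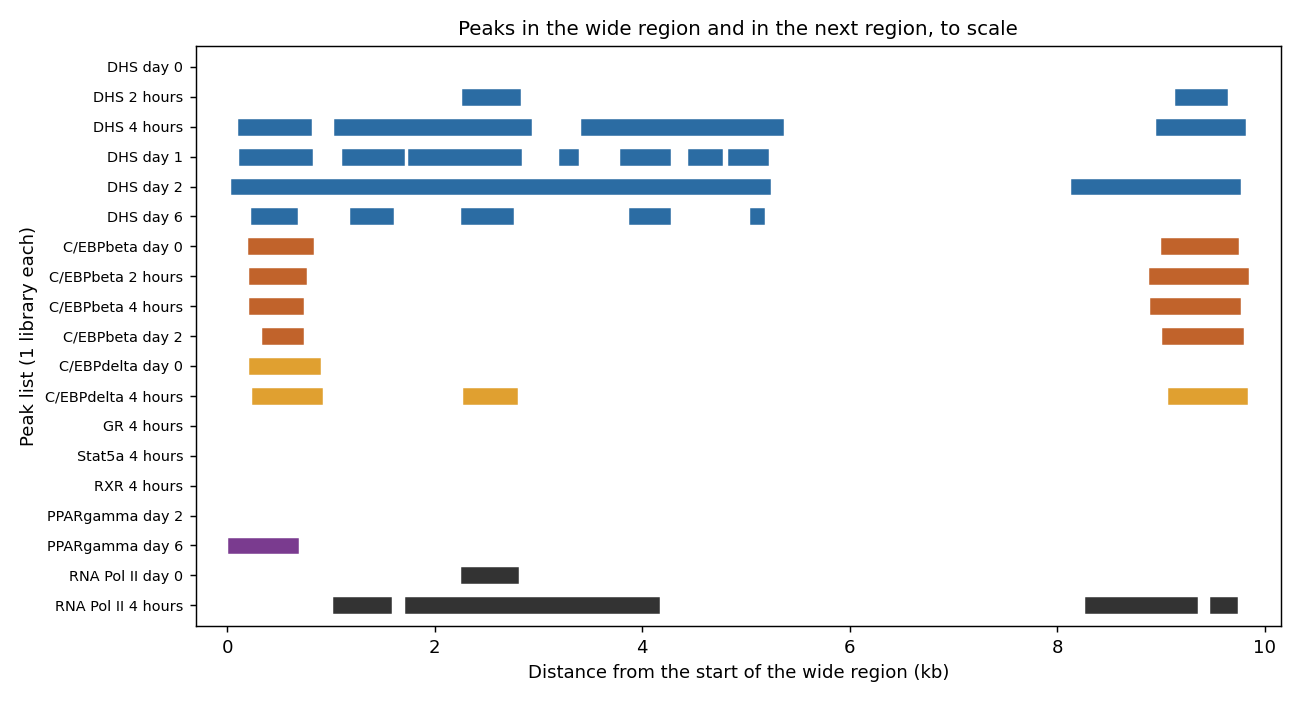
Peaks in the wide region and in the region 2.75 kb above it, drawn to scale (x axis, kb from the start of the wide region; y axis, list). DHS peaks cover little of the wide region at 2 hours (10.7%) and most of it at 4 hours (85.7%) and on day 2 (97.2%); C/EBP and PPARgamma peaks sit at its left end, except for 1 C/EBPdelta peak of 4 hours near its middle, and RNA Pol II of 4 hours spans its middle.

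No other region outside the window had the same presence and absence in all 19 lists, and 19 regions matched the wide region in 18. Of these 19, 14 differed by being in the day 0 DHS list. The 3 widest of the 19 lay on chromosome 5 at 93694982 to 93698204, on chromosome 5 at 92390041 to 92392709 and on chromosome 6 at 13820327 to 13822846, and each differed in that way alone.

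The nearest region on the side of higher coordinates began 2.75 kb away, at 61822727 to 61824460. It held C/EBPbeta in all 4 lists, as peaks of 765 bp on day 0, 977 bp at 2 hours, 886 bp at 4 hours and 804 bp on day 2, and C/EBPdelta at 4 hours (779 bp). DHS peaks of 514, 876 and 1652 bp were listed at 2 hours, 4 hours and day 2, and none on day 0, day 1 or day 6. RNA Pol II of 4 hours had peaks of 1103 and 283 bp there, and none on day 0. The nearest region on the other side lay 29.1 kb away, at 61784667 to 61785487, and was 1 PPARgamma peak of day 6 (821 bp) with no other list.

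Over the whole window, opening by 4 hours was the main pattern of the DHS lists. Of 31 DHS regions in the window, 20 were listed at 4 hours and not on day 0 (64.5%, exact Clopper-Pearson 95% interval 45.4 to 80.8). Over the genome 47.2% of 46760 were, a lower share that still lies inside the interval. The wide region, which was picked for its gain, is 1 of these 20. Such intervals cover counting over regions in these libraries only. Just 1 DHS region was listed on day 0 (3.23%, exact interval 0.0816 to 16.7), against 20.9% over the genome. None of the 31 was in all 6 DHS lists (interval 0 to 11.2%), against 8.76% over the genome.

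Among the 20 gained regions, 9 were already listed at 2 hours (45.0%, exact interval 23.1 to 68.5), against 15.1% of gained regions over the genome. These 9 were the wide region, its neighbour at 2.75 kb, the region at 61910633 to 61911582, and 6 regions bound by several factors at 4 hours, described below. The other 11 were first listed at 4 hours. Of these, 5 were in the DHS list of that time and in no other DHS list, including the 2 with RNA Pol II about 50 kb above the wide region. These were 5 of the 31 DHS regions of the window, and the same pattern made up 12.3% of DHS regions over the genome. C/EBPbeta of day 0 lay at 6 of the 20 (30%), against 28.7% over the genome.

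Most of this open chromatin was absent from the last list. Of the 21 DHS regions of 4 hours, 18 were not listed on day 6 (85.7%, exact interval 63.7 to 97.0), against 67.7% of those over the genome, a share inside the interval. The 3 kept were the wide region, the region at 61439287 to 61440670 and the region at 61937953 to 61938619. The last is the one listed on day 0. Its DHS peaks measured 447 bp on day 0, 541 bp at 4 hours, 652 bp on day 1, 566 bp on day 2 and 173 bp on day 6, with none at 2 hours. No factor and no RNA Pol II was listed there. A further 10 DHS regions were not in the 4 hours list, of which 4 were in the day 2 list alone, 3 in the day 1 list alone and 3 in both. Over the genome these patterns made up 8.87%, 14.5% and 5.15% of DHS regions.

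DHS list lengths differed (9055 to 35389 peaks), and their part in these counts was not tested. With the 6 lists at equal length by width, 9 regions in place of 20 were gained by 4 hours and 7 in place of 18 were absent on day 6, with fewer peaks left in the lists. The count of 9 gained regions listed at 2 hours went to 3 with only the wider peaks of each list.

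C/EBPbeta, the factor with most sites here, was listed again at its day 0 sites at 4 hours, and at further sites. Its peaks merged into 36 regions, of which 11 were listed on day 0, 16 at 2 hours, 29 at 4 hours and 25 on day 2. All 11 regions of day 0 were listed again at 4 hours (exact interval 71.5 to 100%), against 72.7% of day 0 regions over the genome. Of the 29 regions of 4 hours, 18 were not in the day 0 list (62.1%, 42.3 to 79.3), against 50.3% over the genome. Both genome-wide shares lie inside the intervals. The whole C/EBPbeta lists held 20471 peaks on day 0 and 29957 at 4 hours. Only 8 regions (22.2%; 22.5% over the genome) were in all 4 C/EBPbeta lists. Besides the wide region and those 2.75 kb, 37.4 kb and 75.7 kb above it, these were the regions at 149, 177 and 228 kb above and at 374 kb below. C/EBPbeta was listed at 4 hours and at no other time in 7 regions, a pattern whose genome-wide share was not computed. It was listed on day 2 and at no other time in 6 (16.7%, exact interval 6.37 to 32.8), against 12.1% over the genome, a share inside the interval.

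C/EBPbeta sites and open chromatin coincided in part. None of the 11 C/EBPbeta regions of day 0 held a DHS peak of day 0 (exact interval 0 to 28.5%), against 15.6% over the genome, a share inside the interval. At 4 hours, 14 of 29 C/EBPbeta regions held a DHS peak of that time (48.3%), near the 45.7% over the genome. The regions at 61835055 to 61835620 (C/EBPbeta on day 0, at 2 hours and 4 hours) and 61857377 to 61857915 (in all 4 C/EBPbeta lists) had no DHS peak at any time. The region at 61895660 to 61896538 also had none, although it held C/EBPbeta in all 4 lists (820, 542, 519 and 523 bp in time order), C/EBPdelta at both times (446 and 691 bp) and PPARgamma on day 6 (576 bp).

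C/EBPdelta was listed with C/EBPbeta at most of its sites, here as over the genome. Its 2 day 0 peaks were those in the wide region and in the region at 61895660. Of its 18 regions at 4 hours, 16 also held C/EBPbeta of 4 hours (88.9%, exact interval 65.3 to 98.6), against 83.7% over the genome. The others were the 537 bp peak in the wide region and a 506 bp peak at 61561768 to 61562273, where C/EBPbeta was listed on day 2 (440 bp). The pair without GR, Stat5a or RXR made up 10 regions, C/EBPbeta alone 11 and C/EBPdelta alone 2, of 31 regions with any of the 5 factors at 4 hours. Genome-wide shares of these combinations were not computed. Any 1 of the 5 factors was listed alone at 41.9% (exact interval 24.5 to 60.9), against 52.6% over the genome. Any 2 were listed at 35.5% (19.2 to 54.6), against 31.7%. Both genome-wide shares lie inside the intervals.

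At 7 distant regions 3 or more of the 5 factors were listed together. Regions with 3 or more of the 5 factors made up 22.6% of the 31 (exact interval 9.59 to 41.1), against 15.7% over the genome. Those with all 5 numbered 3 (9.68%, 2.04 to 25.8), against 2.65% over the genome. Both genome-wide shares lie inside the intervals. Counted per 700 kb, 7 or more regions with at least 3 factors were found in 5.07% of tiles, and 3 or more with all 5 factors in 1.68%. All 7 lay 149 to 374 kb from the wide region. Every GR peak of the window was at one of them, with C/EBPbeta, as were 5 of the 6 Stat5a peaks and all 3 RXR peaks. Over the genome such regions held 85.2% of GR, 55% of Stat5a and 92.3% of RXR regions, so the GR and RXR counts are near the genome-wide shares. The remaining Stat5a peak (485 bp) lay at 61598099 to 61598746 with C/EBPbeta of 4 hours (531 bp).

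The region at 61439287 to 61440670, 374 kb below the wide region, held all 5 factors and 15 of the 19 lists. At 4 hours its peaks measured 1110 bp for C/EBPbeta, 1136 bp for C/EBPdelta, 1179 bp for GR, 996 bp for Stat5a and 801 bp for RXR. As in the other regions with all 5 factors, these widths exceeded the median of each list (578, 529, 721, 579 and 502.5 bp). C/EBPbeta was listed there on day 0 (1059 bp), at 2 hours (1086 bp) and on day 2 (1072 bp), with nearly constant width. DHS peaks measured 1008 bp at 2 hours, 1012 bp at 4 hours, 1088 bp on day 1, 1319 bp on day 2 and 566 bp on day 6, with none on day 0. PPARgamma was listed on day 2 (1217 bp) and day 6 (1161 bp), the only region of the 7 with PPARgamma, against 17.1% of regions with 3 or more factors over the genome.

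The region at 62047999 to 62049112, 228 kb above, held all 5 factors as peaks of 838 bp (C/EBPbeta), 790 bp (C/EBPdelta), 780 bp (GR), 849 bp (Stat5a) and 718 bp (RXR). C/EBPbeta was there on day 0 (678 bp), at 2 hours (846 bp) and on day 2 (715 bp). Its DHS peaks measured 673 bp at 2 hours, 990 bp at 4 hours, 646 bp on day 1 and 799 bp on day 2, and none was listed on day 0 or day 6.

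The region at 62010986 to 62012157, 191 kb above, held the 5 factors as peaks of 1075, 830, 1112, 825 and 557 bp in the same order. It differed from the other 2 regions with all 5 factors in having no C/EBPbeta peak on day 0; the first was of 2 hours (798 bp). DHS peaks were listed at 2 hours (635 bp), 4 hours (722 bp), day 1 (712 bp) and day 2 (516 bp).

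The region at 61968490 to 61969720, 149 kb above, had every factor except RXR. GR measured 1193 bp, Stat5a 1107 bp, C/EBPbeta 1072 bp and C/EBPdelta 917 bp. C/EBPbeta had been narrower there on day 0 (589 bp) and at 2 hours (870 bp), and measured 654 bp on day 2. The region at 62034069 to 62034997, 214 kb above, held GR (788 bp), Stat5a (416 bp) and C/EBPbeta (437 bp), the latter at 4 hours only. Below the wide region, those at 61478049 to 61478845 and 61644031 to 61644879 held GR (588 and 826 bp) with both C/EBPs and without Stat5a or RXR. Of the 7 regions, 4 stood within 80.6 kb (61968490 to 62049065), each with GR and Stat5a; this grouping was noticed after the values were seen.

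The 7 regions were in the early DHS lists and, like most such regions of the genome, absent from the first and mostly from the last. All 7 were in the DHS list of 4 hours (exact interval 59.0 to 100%; 71.1% over the genome) and 6 in that of 2 hours (85.7%, 42.1 to 99.6; 41.3% over the genome), the exception being the region at 61644031. None was in the DHS list of day 0 (exact interval 0 to 41%, against 14.3% over the genome). In that of day 6 there was 1 (14.3%, 0.361 to 57.9, against 14.2% over the genome). The genome-wide shares of day 0, 4 hours and day 6 lie inside the intervals. All 7 were listed on day 1 (72.3% over the genome) and 4 on day 2 (57.1%, against 56.2% over the genome). C/EBPbeta had been at 3 of the 7 on day 0 (62.8% over the genome) and was at 6 on day 2 (74.9% over the genome). With DHS lists at equal length by width, 5 of the 7 were in the 4 hours list. The 2 hours list is the shortest and was left whole, so its 6 of 7 could not change. With the wider peaks only, 3 were in the 2 hours list. Within each of the 7 regions the middles of the factor peaks lay 56.5 to 201.5 bp apart at most, against a median of 96.5 bp over 5536 such regions of the genome, and the DHS peak of 4 hours was centred 19 to 148 bp from their median.

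**Figure D4:**
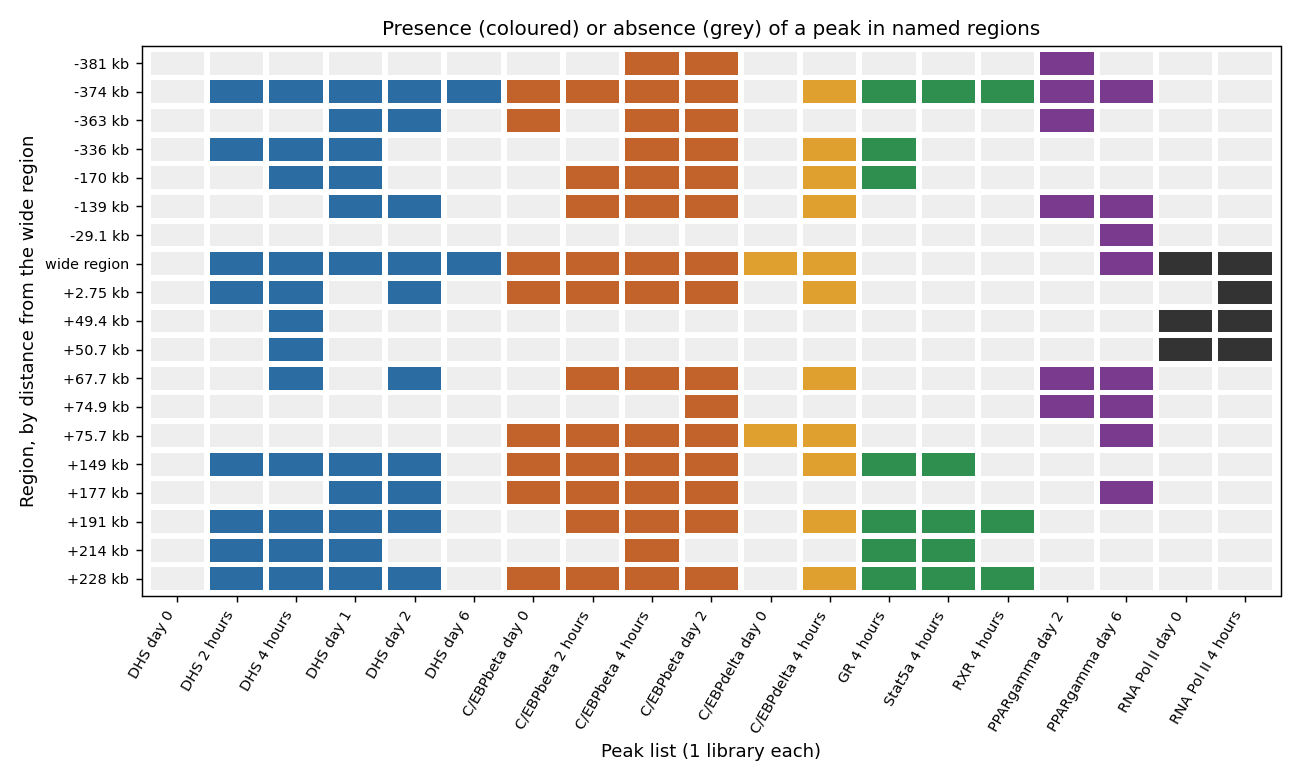
Presence (coloured) or absence (grey) of a peak of each of the 19 lists (x axis) in the wide region, its neighbours and the regions with 3 or more factors, PPARgamma or RNA Pol II, ordered by distance from the wide region (y axis, kb; negative is the side of lower coordinates). GR, Stat5a and RXR are found 149 kb or more from the wide region, RNA Pol II in it or up to 50.7 kb above it, and the day 0 DHS column is empty; the region at 61937953 with the day 0 DHS peak is not among those shown.

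PPARgamma regions numbered 10, and most were at places bound by C/EBPbeta. Over the genome 32.2% of PPARgamma regions were in the lists of both days; here 4 of 10 were. A further 2 were of day 2 alone (16.1% over the genome) and 4 of day 6 alone (51.7% over the genome). C/EBPbeta of day 2 was at 9 of the 10 (90.0%, exact interval 55.5 to 99.7), against 51.6% over the genome. Any of the 5 factors of 4 hours had been at 8 of the 10 (80.0%, 44.4 to 97.5), against 42.6% over the genome. The exceptions were the lone day 6 peak at 61784667 and the region at 61894871 to 61895526.

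Of the 6 early PPARgamma sites, those of day 2, 3 lay 363 to 381 kb below the wide region, between 61432930 and 61451206. The peaks measured 762 bp at 61432930, 1217 bp at 61439437 and 1525 bp at 61449682. The first and the third were not listed on day 6. The third overlapped 2 C/EBPbeta peaks of day 2 (543 bp, in part, and 635 bp) and a DHS peak of day 2 (727 bp). C/EBPbeta had been there on day 0 (488 bp). The first held C/EBPbeta of 4 hours (598 bp) and day 2 (350 bp) and no DHS peak at any time.

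The other 3 early sites were kept on day 6. At 61674836 to 61676103, 139 kb below, PPARgamma measured 693 bp on day 2 and 1255 bp on day 6, with C/EBPbeta from 2 hours on and DHS peaks of day 1 (483 bp) and day 2 (628 bp). At 61887708 to 61888580, 67.7 kb above, the peaks measured 691 and 782 bp, with C/EBPbeta from 2 hours on and DHS peaks at 4 hours (607 bp) and day 2 (580 bp). At 61894871 to 61895526, 74.9 kb above, they measured 649 and 599 bp, with C/EBPbeta of day 2 (448 bp) and no DHS peak.

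The 4 sites of day 6 alone were the lone peak at 61784667, the lower end of the wide region, the region at 61895660 and the region at 61997415 to 61998253 (702 bp, 177 kb above). The last 3 each held C/EBPbeta in all 4 lists. Of the 6 PPARgamma regions of day 2, 4 held a DHS peak of day 2 (66.7%), against 74.2% over the genome, and of the 8 of day 6, 2 held a DHS peak of day 6 (25.0%), against 30.9%. Both shares were within 1 region of those over the genome. With only the wider peaks of each list, 6 PPARgamma regions were left and 1 was in both lists.

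RNA Pol II peaks formed 3 groups, in the wide region, in the region 2.75 kb above it and about 50 kb above it. Over the genome 23.3% of RNA Pol II regions were listed at 4 hours and not on day 0; here 4 of 7 were (57.1%, exact interval 18.4 to 90.1), none was of day 0 alone (35.2% over the genome) and 3 were of both times (42.9%; 41.5% over the genome). In the third group, peaks of day 0 measured 352 and 592 bp and peaks of 4 hours 546, 612 and 411 bp, between 61869341 and 61871225. Peaks covered 1512 bp of the window on day 0 and 6006 bp at 4 hours, of which 2473 bp was the one peak in the wide region. All 7 regions held a DHS peak of 4 hours, against 54.3% over the genome. The 2 sides differ in make-up: all 7 had an RNA Pol II peak of 4 hours, while the genome-wide share counts regions of day 0 alone too (35.2%). Some of the 7 lay side by side and shared a DHS peak, so they are not separate sites. The interval above counts each as separate. The 2 DHS peaks of the third group (1055 and 544 bp) were listed at 4 hours and at no other time, and no factor was listed with them. When peaks up to 500 bp apart were joined, the 7 RNA Pol II regions became 3, of which 1 was of 4 hours alone.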

How the data were processed

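For 19 samples a list of peaks was used as deposited by the authors, giving chromosome, start and end in base pairs with no score or read count; the input sample was not analysed here. Build mm9 is per the submitters' processing notes; the peak caller, threshold and read depth are not given in the sources used here. A missing peak may therefore be one just under a threshold, and peak width is not signal strength.

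Positions are counted from 1. Peaks sharing at least 1 bp were merged, separately for the lists of each comparison and over all 19 lists. Genome-wide shares use the same steps on all chromosomes; tiles leave out chromosome Y and incomplete end tiles. Calculations used Python 3.11.15, SciPy 1.17.1 and Matplotlib 3.10.9; merging was tested on simulated data. The window, members, lists and alternatives were chosen with earlier results of these data known. Named regions were the wide region, its neighbours, regions with 3 or more of 5 factors, PPARgamma and RNA Pol II regions, and DHS regions in all 6 lists; others named were chosen after their values were seen.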

Additional observations from a re-analysis of the deposited data

How the results depend on the processing

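Of 120 alternative values for 17 counts, 92 stayed within 1.5 times the reported count and 28 did not. The 92 include values that their alternative could not change, so they are no measure of stability. Among these are most values under the 50% rule for presence. So is the count of multi-factor regions in the 2 hours DHS list at equal list length. Keeping only the wider peaks of each list, which leaves fewer peaks, gave 123 peaks (224 reported), 27 merged regions (48), 13 DHS regions gained by 4 hours (20), 3 of them at 2 hours (9), 11 absent on day 6 (18), 8 gained C/EBPbeta regions (18), 4 in all C/EBPbeta lists (8), 3 regions with 3 or more factors in the 2 hours DHS list (6), 6 PPARgamma regions (10), 1 of both days (4) and 4 with an early factor (8). Equal list length by width, which also leaves fewer peaks, gave 9 DHS regions gained, 7 absent on day 6, 11 gained C/EBPbeta regions and 4 regions with 3 or more factors (7). Trimming the window by 100 kb on each side, which drops the outer sites, gave 147 peaks, 2 regions in 10 or more lists (5), 12 DHS regions gained, 4 of them at 2 hours, 11 absent on day 6, 10 gained C/EBPbeta regions, 2 regions with 3 or more factors, 1 and 2 of these in the DHS lists of 2 and 4 hours, 0 with all 5 factors (3) and 5 PPARgamma regions with an early factor. Joining peaks up to 500 bp apart gave 3 RNA Pol II regions (7), 1 of them of 4 hours alone (4). Setting peaks to 200 bp moved no count beyond 1.5 times. Requiring 50% of the shorter peak for presence could change only the early factors at PPARgamma regions and the DHS peaks at regions with 3 or more factors, since other peaks lie wholly inside their merged region; it moved none. The alternatives that were chosen after seeing the data were merging only peaks that share 50% of the shorter and leaving out DHS peaks of day 1 and day 6 narrower than 251 bp (2 and 2 in the window); neither moved a count beyond 1.5 times. No paired analysis was possible because each group holds 1 library. Depth is unknown, so absence from a list cannot be told apart from a peak missed at low depth.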
